A study of Mus musculus with 2 samples.

Results

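The immunity-related GTPases were described here by 7 mouse genes, Irgm1, Irgm2, Igtp, Ifi47, Iigp1, Tgtp1 and Tgtp2, of the 32285 genes in the deposited matrices. They were chosen by name, as a gene family, and all 7 were found in both libraries. The cells were adherent bone marrow cells of 1 wild-type male C57BL/6J mouse aged 3 months, grown in hormone-depleted medium and sequenced as 2 droplet-based 3′ libraries. In the DHT library the cells had 1 nM dihydrotestosterone (DHT), the potent androgen formed from testosterone. In the Vehicle library they had an equal volume of ethanol. Both cultures had 48 h with 5 ng/mL M-CSF, then 24 h with 100 ng/mL M-CSF, 30 ng/mL RANKL and 10 ng/mL human TNF. M-CSF and RANKL are the cytokines that drive osteoclast formation, and TNF makes the culture inflammatory. With 1 library per condition, differences could not be set against replicate spread and no p-value was computed. Every interval given is a 95% interval for counting error alone.

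Immunity-related GTPases are large GTP-binding proteins that mouse cells make in response to interferons, and they guard cells against bacteria and parasites that live inside vacuoles. The regulators, Irgm1, Irgm2 and Igtp (also called Irgm3), sit on the cell's own membranes and keep the others inactive there. The effectors Iigp1 (Irga6), Tgtp1 and Tgtp2 (Irgb6) and Ifi47 (Irgd) load onto the membrane of the vacuole. Interferon gamma acts mainly at GAS elements of promoters, and type I interferons act mainly at ISRE elements.

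Of the 7 genes, 6 lie on chromosome 11 in a pair of groups (GRCm38, GENCODE M21). The first group holds 4 members in 235.007 kb and runs from Irgm1 (chr11:48861968-48871683, minus strand) through Tgtp1 (chr11:48985327-48994172, minus) and Tgtp2 (chr11:49057194-49064206, minus) to Ifi47 (chr11:49076587-49096974, plus). The second holds Igtp (chr11:58199556-58207591, plus) and Irgm2 (chr11:58199618-58222782, plus) in 23.227 kb, and these 2 genes share 162 exonic bases. Iigp1 lies apart from them. All 7 are annotated as protein-coding. The last 500 bases of the Tgtp1 and Tgtp2 transcripts were the same in all 411 of 411 windows of 90 bases, so 3′ reads of these 2 genes cannot be told apart and their separate counts are uncertain. How the counting treated such reads is not given, so low counts of these 2 genes need not mean low levels. The same check found 0 shared windows for each of the other 5 members.

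A promoter window of 300 bases was available from RefSeq (GRCm38.p6) for 6 of the 7 members, Iigp1 being the exception, and covered 250 bases before and 50 after the start site. The ISRE letters (GAAA, any 2 bases, GAAA) and the GAS letters (TTCNNNGAA) were looked for on both strands. Of 32851 such windows of all genes, 3.44% held the ISRE letters and 8.30% held the GAS letters. Of the 6 member windows, 5 held the ISRE letters and 4 held both, with 2 bases between GAS and ISRE in each of those 4. The Ifi47 window held neither. The stretch around the letters is shown for these 5 promoters because members of both groups carry the same arrangement, with the motif letters in capitals and each sequence 5′ to 3′ on the strand of its gene.
Irgm1 (chr11:48871405-48871480, minus): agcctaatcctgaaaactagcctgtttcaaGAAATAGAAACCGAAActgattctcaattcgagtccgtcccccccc
Irgm2 (chr11:58214883-58214952, plus): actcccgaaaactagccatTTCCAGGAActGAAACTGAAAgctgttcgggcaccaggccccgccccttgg
Igtp (chr11:58199492-58199561, plus): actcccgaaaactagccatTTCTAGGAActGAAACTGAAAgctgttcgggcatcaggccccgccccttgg
Tgtp1 (chr11:48992284-48992353, minus): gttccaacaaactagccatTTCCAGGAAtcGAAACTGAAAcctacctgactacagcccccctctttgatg
Tgtp2 (chr11:49064243-49064312, minus): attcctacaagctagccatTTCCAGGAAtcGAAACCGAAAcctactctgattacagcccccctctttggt

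In the Irgm1 stretch a pair of ISRE matches overlap, and the capitals run over both. The ISRE letters began 30 bases before the start site in Irgm1, 64 in Irgm2, 34 in Igtp, 77 in Tgtp1 and 70 in Tgtp2. The Irgm2 and Igtp stretches shared 68 of 70 bases (97.1%), and those of Tgtp1 and Tgtp2 shared 49 of 70 (70.0%). A match describes letters in these windows and does not show binding.

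The files held 10798 barcodes with 319430510 UMIs (unique molecular identifiers, which count transcripts) for DHT, and 10630 with 453802415 for Vehicle. After filtering, 7708 DHT and 8590 Vehicle cells were left, with medians of 30133 and 50833.5 UMIs per cell. Levels are in CPM, the usual depth-scaled unit, which sets a gene's UMIs against all UMIs of the same cells on a common scale for both libraries. The labels call the cells osteoclast precursors, and clustering without the members or the interferon-related genes listed below found several cell types. Interferon-responsive genes outside those lists were not left out of the clustering. Cells in clusters led by osteoclast markers such as Acp5, Ctsk and Atp6v0d2 made up 16.3% of DHT and 29.9% of Vehicle cells, and neutrophil-like cells 24.1% and 12.6%. The other named classes were macrophage-like, monocyte-like, granulocyte-monocyte progenitor-like (GMP), conventional dendritic cell-like (cDC) and B cell-like. The libraries shared 33 barcodes.

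All 3 regulators were higher in the DHT library. Irgm1 stood at 24.6 CPM (24.0 to 25.1; 7289 UMIs) in DHT cells and 7.88 CPM (7.61 to 8.15; 3394 UMIs) in Vehicle cells, a ratio of 3.12 (2.99 to 3.25). Irgm2 stood at 8.83 CPM (8.50 to 9.18) in DHT cells and 2.32 CPM (2.17 to 2.46) in Vehicle cells, a ratio of 3.81 (3.54 to 4.11). Igtp stood at 7.70 CPM (7.39 to 8.02) in DHT cells and 2.72 CPM (2.57 to 2.88) in Vehicle cells, a ratio of 2.83 (2.64 to 3.04). At this depth the intervals are narrow, so their separation alone says little about the members. The autophagy gene Becn1, at 52.0 CPM in DHT cells and 48.6 CPM in Vehicle cells, had a ratio interval of 1.05 to 1.09.

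Among the effectors, Ifi47 stood at 14.6 CPM (14.1 to 15.01) in DHT cells and 4.61 CPM (4.41 to 4.82) in Vehicle cells, a ratio of 3.16 (2.99 to 3.33). The other effectors had few UMIs, which for Tgtp1 and Tgtp2 may come from their shared 3′ ends. Iigp1 had 110 UMIs in DHT cells and 7 in Vehicle cells, a ratio of levels of 22.8 (10.7 to 58.1). Tgtp2 had 101 UMIs in DHT cells and 16 in Vehicle cells, a ratio of 9.17 (5.38 to 16.6), and Tgtp1 had 6 UMIs in DHT cells and 1 in Vehicle cells, a ratio of 8.71 (1.06 to 401). Summed over the 7 genes the level was 56.4 CPM in DHT cells and 17.6 CPM in Vehicle cells, a ratio of 3.21 (3.12 to 3.30).

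A gene was counted as measured when its mean over both libraries was at least 5 CPM, and as higher at a ratio of at least 1.5. Of the 7 members 4 were measured (Irgm1, Irgm2, Igtp and Ifi47), and all 4 were higher in DHT cells. Of all 9637 measured genes, 6.63% were higher and 0.342% lower in DHT cells. The median log2 ratio was 1.65 for the 4 members and -0.01 for all measured genes. Irgm2, Igtp and Ifi47 were below 5 CPM in Vehicle cells and passed the mean through their DHT level, so these counts are descriptions and lend no support. The libraries also differed in their mix of cells, and neutrophil markers summed to 39161 CPM in DHT cells and 12833 CPM in Vehicle cells. With every cluster weighted by its Vehicle share, the log2 ratios were 1.70 for Irgm1, 1.87 for Irgm2, 1.37 for Igtp and 1.42 for Ifi47, against 1.64, 1.93, 1.502 and 1.66 unweighted.

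The 4 better detected members were higher in DHT cells in nearly every class, and the size of the difference varied between them. In osteoclast-like cells (1260 DHT, 2565 Vehicle), Irgm1 stood at 19.95 CPM in DHT cells and 6.50 CPM in Vehicle cells, a ratio of 3.07 (2.84 to 3.31). In the same cells Irgm2 stood at 6.22 CPM in DHT cells and 1.54 CPM in Vehicle cells, a ratio of 4.05 (3.49 to 4.71). Ifi47 stood at 7.15 CPM in DHT cells and 2.52 CPM in Vehicle cells, a ratio of 2.84 (2.51 to 3.22), and Igtp at 5.05 and 1.87 CPM, a ratio of 2.71 (2.34 to 3.14). Only Irgm1 reached a mean of 5 CPM in this class, and it was higher, as were 1.29% of its 9295 measured genes. Neutrophil markers summed to 1292 CPM in DHT and 504 CPM in Vehicle osteoclast-like cells. With an estimated 3.93% (DHT) and 4.15% (Vehicle) of free RNA subtracted, the Irgm1 log2 ratio in this class was 1.62. Acp5, the acid phosphatase that marks osteoclasts, stood at 765 CPM in DHT and 641 CPM in Vehicle cells of the class.

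**Figure D1:**
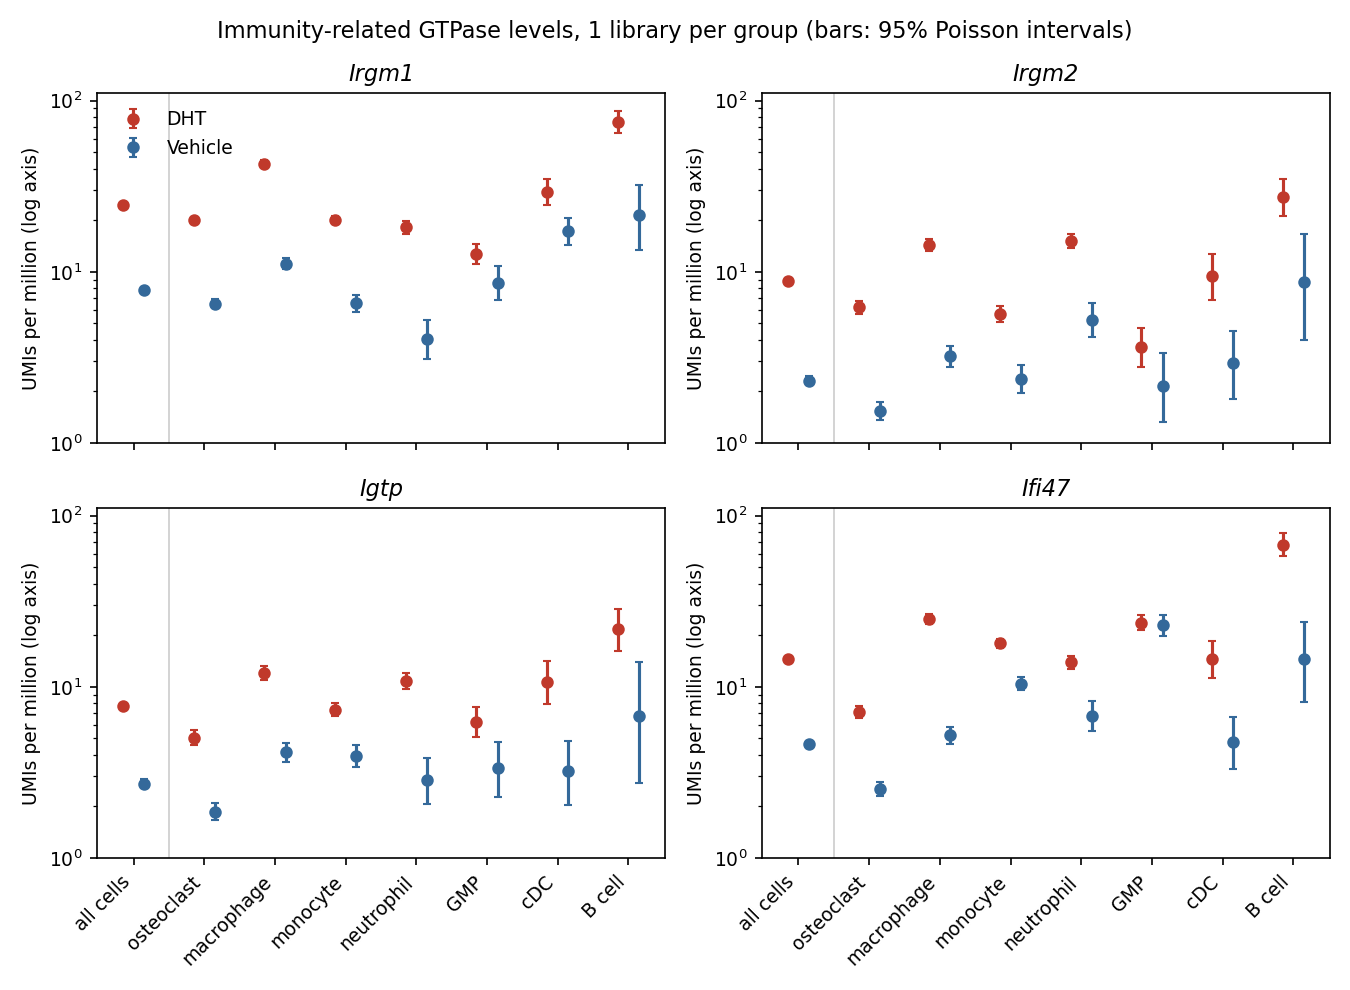
Levels of Irgm1, Irgm2, Igtp and Ifi47 in CPM (log axis) in all cells and in each class, DHT left (red) and Vehicle right (blue), with 95% Poisson intervals for 1 library per group. The DHT point lies above the Vehicle point in every class for Irgm1, Irgm2 and Igtp, while for Ifi47 the GMP points stand side by side at 23.7 and 22.8.

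Macrophage-like cells (1009 DHT, 1218 Vehicle; C1qa, C1qb and Ms4a7 among their leading genes) had large differences in all 4. Ifi47 stood at 24.9 CPM (23.3 to 26.5) in DHT cells and 5.20 CPM (4.66 to 5.79) in Vehicle cells, a ratio of 4.78 (4.22 to 5.43). Irgm1 stood at 42.9 CPM (40.9 to 44.9) in DHT cells and 11.1 CPM (10.3 to 12.0) in Vehicle cells, a ratio of 3.85 (3.53 to 4.21). Irgm2 had a ratio of 4.46 (3.799 to 5.26) and Igtp of 2.91 (2.50 to 3.40). All 4 measured members were higher, against 3.45% of 9389 measured genes. Irgm2 and Igtp, at 3.21 and 4.14 CPM in Vehicle cells, passed the mean through their DHT level, so nothing is read from this count. Neutrophil markers summed to 1564 CPM in DHT and 601 CPM in Vehicle cells of this class. Its own macrophage markers summed to 2305 CPM in DHT and 1352 CPM in Vehicle cells, and monocyte markers to 420.2 and 199.8 CPM. Whether the make-up of the class or the levels per cell differed was not tested, nor was the part of this in the member ratios. With free RNA subtracted the log2 ratios were 1.95 for Irgm1 and 2.27 for Ifi47, against 1.95 and 2.26 without. The free RNA estimates of single markers ran from 3.06% to 122% in DHT and from 2.72% to 226% in Vehicle cells, so this subtraction is rough.

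In the monocyte-like class (906 DHT, 790 Vehicle; F13a1, Fn1, Vcan and Ccr2), Irgm1 stood at 20.02 CPM in DHT cells and 6.56 CPM in Vehicle cells, a ratio of 3.05 (2.70 to 3.46). Ifi47 differed less there, at 18.0 CPM in DHT cells and 10.4 CPM in Vehicle cells, a ratio of 1.73 (1.55 to 1.92). All 3 measured members, Irgm1, Igtp and Ifi47, were higher, against 1.78% of 9320 measured genes. Igtp, at 3.94 CPM in Vehicle cells, passed the mean through its DHT level, so this count is a description. Neutrophil markers summed to 5233 CPM in DHT and 2635 CPM in Vehicle cells of this class, and megakaryocyte markers to 97.7 and 48.7 CPM. The megakaryocyte list includes Pf4, a leading gene of the macrophage-like class, so its sum need not mean megakaryocyte RNA. The part of these markers was not tested. In the neutrophil-like class (1860 DHT, 1086 Vehicle), Irgm1 stood at 18.1 CPM in DHT cells and 4.06 CPM in Vehicle cells, a ratio of 4.47 (3.43 to 5.92). Ifi47 stood at 13.9 CPM in DHT cells and 6.78 CPM in Vehicle cells, a ratio of 2.05 (1.65 to 2.56). Irgm2 (2.89) and Igtp (3.78) were higher too, so 4 of 4 measured members were higher there, against 2.26% of 8634 measured genes. Irgm1 and Igtp, at 4.06 and 2.86 CPM in Vehicle cells, passed the mean through their DHT level, so this count lends no support. The neutrophil-like log2 ratio of Ifi47, 1.03, was 0.55 at a coarser clustering (Leiden resolution 0.3), below the 1.5-fold limit, and 2.00 as a mean of each cell's CPM.

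GMP-like cells (268 DHT, 172 Vehicle), led by the granule genes Elane, Prtn3, Ctsg and Mpo, had the lowest Ifi47 ratio of the classes. Ifi47 stood at 23.7 CPM (21.4 to 26.1) in DHT cells and 22.8 CPM (19.9 to 26.1) in Vehicle cells, a ratio of 1.04 (0.875 to 1.23). This interval lies below the Ifi47 intervals of all the other 6 classes. It overlaps those of single clusters described below, so a ratio near 1 is not particular to GMP-like cells. These are the neutrophil-like cluster 8 (0.895 to 1.51), the monocyte-like cluster 9 (1.09 to 1.495) and the small mesenchymal stromal-like cluster (0.354 to 1.85). Irgm1 stood at 12.7 CPM (11.1 to 14.6) in DHT cells and 8.66 CPM (6.86 to 10.8) in Vehicle cells, a ratio of 1.47 (1.13 to 1.93). Neither of the 2 measured members reached 1.5-fold, and 2.91% of 9422 measured genes did. Below the 5 CPM mean, Igtp had a ratio of 1.86 (1.24 to 2.88) and Irgm2 of 1.68 (1.00 to 2.95). The Irgm1 value passed that limit under 7 alternatives, of which 3 gave log2 ratios of 1.07, 1.00 and 1.03 in place of 0.56, with a larger GMP-like class of 705, 594 and 654 DHT cells and 572, 529 and 556 Vehicle cells.

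The lymphoid and dendritic classes were smaller. B cell-like cells (346 DHT, 126 Vehicle) had Irgm1 at 75.5 CPM (65.0 to 87.2) in DHT cells and 21.4 CPM (13.4 to 32.3) in Vehicle cells, a ratio of 3.53 (2.27 to 5.78) from 185 and 22 UMIs. Their Ifi47 ratio was 4.65 (2.74 to 8.50), from 166 UMIs in DHT cells and 15 in Vehicle cells. All 4 measured members were higher, but so were 17.4% of 10071 measured genes, and 23.2% were lower. Neutrophil markers summed to 1133 CPM in DHT and 7238 CPM in Vehicle B cell-like cells, and the free RNA estimated from them was 3.06% and 56.3% of UMIs. With it subtracted the log2 ratios were 1.04 for Irgm1 in place of 1.82 and 1.39 for Ifi47 in place of 2.22. In cDC-like cells (141 DHT, 195 Vehicle) Irgm1 stood at 29.4 CPM in DHT cells and 17.2 CPM in Vehicle cells, a ratio of 1.71 (1.33 to 2.20). Irgm2, Igtp and Ifi47 had ratios of 3.21, 3.33 and 3.07 there. All 4 measured members were higher in cDC-like cells, against 10.2% of 9547 measured genes. Irgm2, Igtp and Ifi47, at 2.94, 3.22 and 4.75 CPM in Vehicle cells, passed the mean through their DHT level. Nothing is read from this count.

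**Figure D2:**
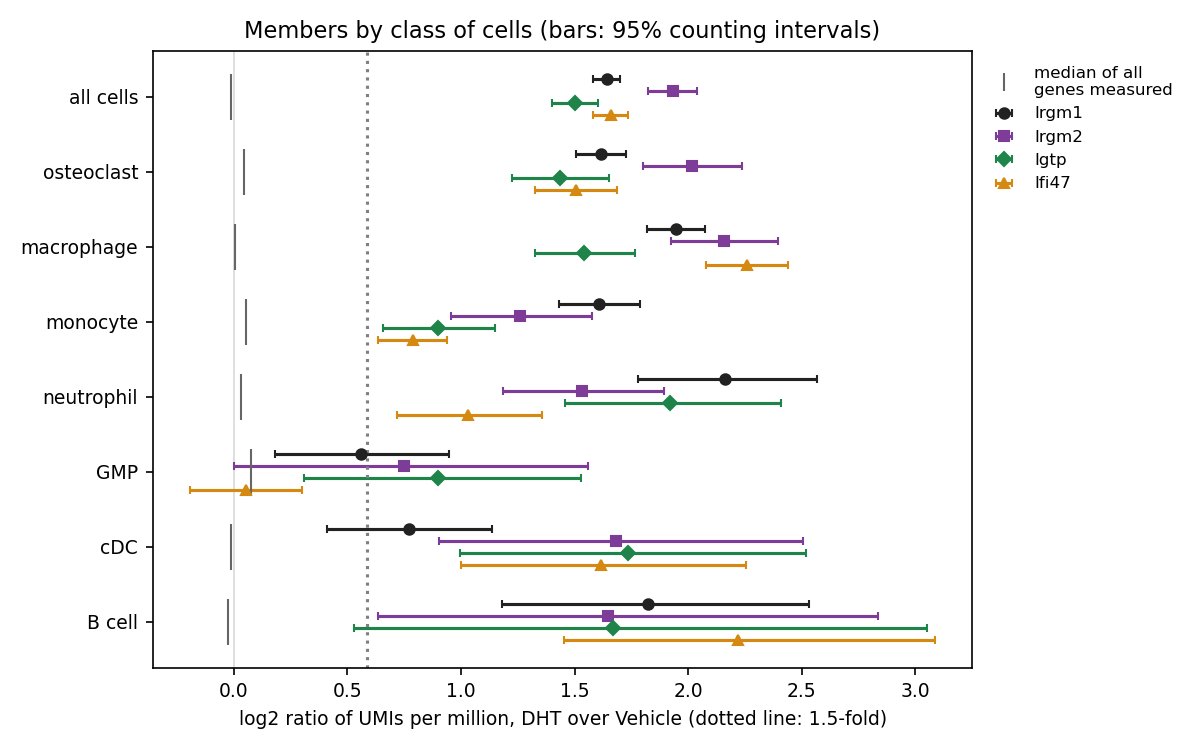
Log2 ratio of the level in DHT over Vehicle cells for the 4 better detected members, by class, with 95% counting intervals, the 1.5-fold limit (dotted) and the median of all measured genes (short grey bars). All points lie right of 0, most of them right of 1, and the lowest is Ifi47 in GMP-like cells at 0.05.

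The order of the classes for Irgm1 in DHT cells was B cell-like, macrophage-like, cDC-like, monocyte-like, osteoclast-like, neutrophil-like and GMP-like. The intervals of monocyte-like, osteoclast-like and neutrophil-like cells overlapped, and the rest did not overlap their neighbours. In Vehicle cells the order was B cell-like, cDC-like, macrophage-like, GMP-like, monocyte-like, osteoclast-like and neutrophil-like, with neighbours overlapping except cDC-like with macrophage-like and osteoclast-like with neutrophil-like. For Ifi47 GMP-like cells came after B cell-like and macrophage-like cells in the DHT library, and came first in the Vehicle library, where their interval overlapped that of B cell-like cells. With free RNA subtracted, B cell-like cells stood at 26.5 CPM in the Vehicle library, above the 22.8 CPM of GMP-like cells. That subtraction is rough, and free RNA was not estimated for GMP-like cells, so this order is uncertain. Osteoclast-like cells had the lowest Ifi47 level of the 7 classes in both libraries. The class with the highest level stood 5.92-fold above that with the lowest for Irgm1 in DHT cells, and 5.26-fold in Vehicle cells.

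Cluster 0, which the naming rule left without a class (889 DHT, 2002 Vehicle cells), was led by Plxna4, Akap6 and Gpnmb and held 6 of 10 osteoclast markers at over 2-fold. Irgm1 stood at 28.5 CPM in its DHT cells and 8.47 CPM in its Vehicle cells, a ratio of 3.37 (3.09 to 3.67). Its 3 measured members (Irgm1, Irgm2 and Ifi47) were all higher in DHT cells, against 1.5% of 9245 measured genes. Irgm2 and Ifi47, at 2.53 and 3.00 CPM in Vehicle cells, passed the mean through their DHT level, so nothing is read from this count.

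The neutrophil-like class joined 3 clusters, and the members differed among them. These clusters were set side by side after their values had been seen. They can be ordered by Fcnb, a ficolin gene of immature granulocytes. Cluster 8, led by Ngp, Camp and Chil3, had Fcnb at 780 CPM in DHT cells and 951 CPM in Vehicle cells. Cluster 5, led by Ltf, Ngp and Retnlg, had 198 and 285 CPM. Cluster 6, led by Cstdc4 and Il1b and holding the chemokine receptor Cxcr2 among its 10 leading genes, had 1.66 and 2.67 CPM.

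Ifi47 stood at 12.6 CPM (10.9 to 14.6) in DHT cells and 10.9 CPM (8.72 to 13.5) in Vehicle cells of cluster 8, a ratio of 1.16 (0.895 to 1.51). In cluster 5 it stood at 16.1 CPM (14.0 to 18.5) in DHT cells and 3.06 CPM (1.71 to 5.04) in Vehicle cells, a ratio of 5.27 (3.12 to 9.60). In cluster 6 it stood at 12.1 CPM (9.16 to 15.6) in DHT cells and 0.446 CPM in Vehicle cells (58 and 1 UMIs), a ratio of 27.1 (4.67 to 1087). The DHT levels of the 3 clusters thus lay within 12.1 to 16.1 CPM, and the Vehicle levels ran lower with each step down in Fcnb, with overlapping Vehicle intervals in clusters 5 and 6.

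The point values of the regulators had the same order in these clusters. Irgm1 had ratios of 2.74 (1.88 to 4.10), 5.59 (3.62 to 9.05) and 8.17 (3.63 to 22.8) in clusters 8, 5 and 6. Igtp had 1.96 (1.28 to 3.08), 5.59 (3.12 to 11.04) and 11.8 (3.89 to 58.6), and Irgm2 had 1.45, 3.35 and 5.17. For all 4 genes the ratio intervals of clusters 5 and 6 overlapped, and for Irgm1 that of cluster 8 overlapped both. The counts of measured members that were higher were 2 of 4 in cluster 8, 4 of 4 in cluster 5 and 4 of 4 in cluster 6, beside 2.74%, 4.84% and 7.26% of all measured genes. In cluster 6 all 4 members passed the mean through their DHT level, as did Irgm1, Igtp and Ifi47 in cluster 5. Irgm1, Irgm2 and Igtp did so in cluster 8, so nothing is read from these counts. The measured type I interferon-stimulated genes had median log2 ratios of 1.10, 2.64 and 4.09 in clusters 8, 5 and 6. The same filter chose the genes behind these medians, so they are descriptions too.

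Depth moved with this order. The median UMIs per cell were 35396 in DHT and 29082 in Vehicle cells of cluster 8, 15267.5 and 11374.5 in cluster 5, and 7047 and 5346 in cluster 6, and the part of depth in the order was not tested. Free RNA estimated from osteoclast markers was between 2.53% and 8.87% of UMIs in these cells. With it subtracted, Ifi47 stood at 11.8 CPM in DHT and 0.0428 CPM in Vehicle cells of cluster 6. The last value starts from 1 UMI, and single markers gave 0% to 88.6% in DHT and 0% to 74.2% in Vehicle cells there. Over 8 settings of filter, doublet rule and resolution, the cluster with most Fcnb had the lowest Ifi47 ratio in 8 of 8, at log2 values of 0.07 to 0.29. In the cluster ordered last by Fcnb the Ifi47 log2 ratio was 4.76 to 5.48. At Leiden resolution 1.0 a further cluster had Ifi47 at 20.7 CPM in DHT and 0 in Vehicle cells, so the 2 could not be ranked. That cluster also had the larger log2 ratios of Irgm1 (3.33 against 3.03) and Irgm2 (2.61 against 2.37).

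The monocyte-like class had a like contrast between its 2 clusters. In cluster 9, whose leading genes include the progenitor granule genes Ctsg and Prtn3, Ifi47 stood at 14.1 CPM in DHT cells and 11.1 CPM in Vehicle cells, a ratio of 1.27 (1.09 to 1.495). In cluster 7, led by F13a1, Fn1 and Vcan, it stood at 20.8 CPM in DHT cells and 9.75 CPM in Vehicle cells, a ratio of 2.13 (1.84 to 2.47). Irgm1 had ratios of 2.60 (2.09 to 3.24) in cluster 9 and 3.13 (2.69 to 3.65) in cluster 7, which overlap. Of the measured members, 1 of 2 was higher in cluster 9 and 4 of 4 in cluster 7, against 2.02% and 2.06% of measured genes. Irgm1 in cluster 9 and Irgm2 and Igtp in cluster 7 were below 5 CPM in Vehicle cells. They passed the mean through their DHT level, so nothing is read from these counts. Only 4 of the 8 settings split this class, and in each of these 4 Ifi47 had the higher ratio in the cluster with less Ctsg and Prtn3. Irgm1 did so in 3 of the 4, and with no doublet removal it had log2 ratios of 1.61 in the cluster with more and 1.598 in that with less.

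**Figure D3:**
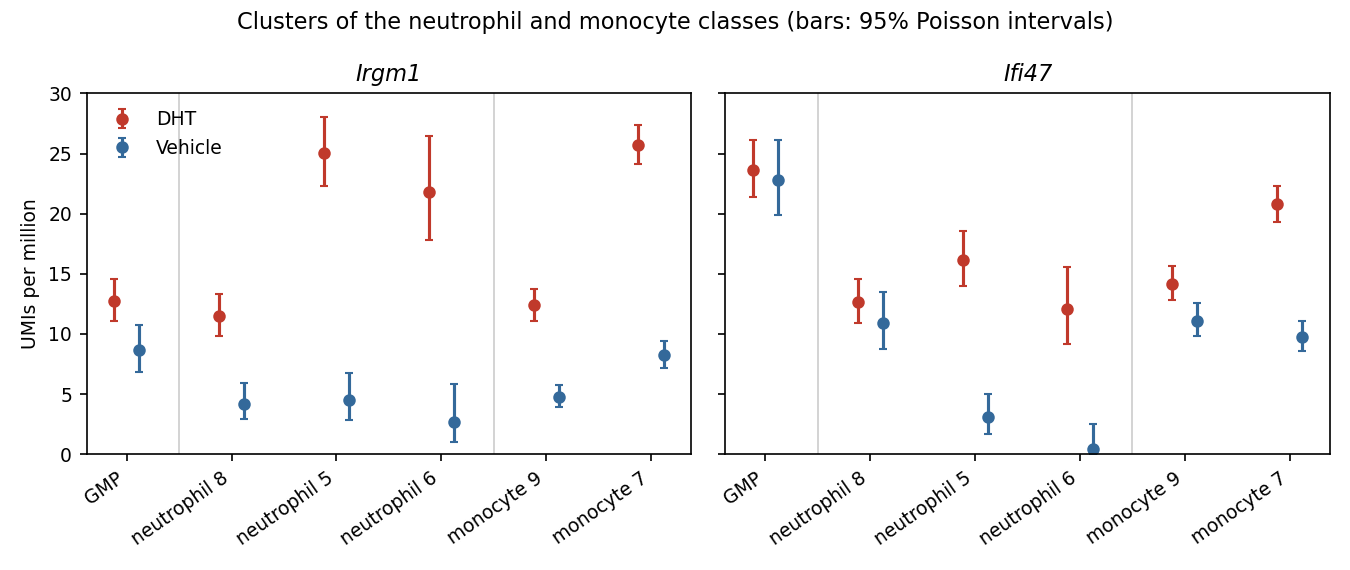
Irgm1 (left) and Ifi47 (right) in CPM in GMP-like cells, the 3 neutrophil-like clusters from most to least Fcnb and the 2 monocyte-like clusters from most to least Ctsg and Prtn3, DHT (red) left of Vehicle (blue), with 95% Poisson intervals. The Ifi47 points of GMP-like cells and cluster 8 nearly meet, and in cluster 6 they stand at 12.1 and 0.446.

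Cells were then thinned to 4719 UMIs each, so that shares of positive cells could be compared at equal depth. This left out 1060 DHT and 570 Vehicle cells below that depth. At least 1 member was detected in 22.8% (interval 21.8 to 23.8) of DHT cells, against 8.59% (7.99 to 9.23) in the Vehicle library. At least 2 members were detected in 4.59% of DHT cells, against 0.486% of Vehicle cells. Irgm1 alone was detected in 11.3% of DHT and 3.93% of Vehicle cells, or 41.0% and 27.6% before thinning. No class is known to lack these genes, so no background share from free RNA could be set beside these values.

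By class, at least 1 member was detected in 33.9% of DHT and 11.9% of Vehicle macrophage-like cells, and in 16.2% and 6.22% of osteoclast-like cells. The shares were 19.7% in DHT and 7.26% in Vehicle neutrophil-like cells. B cell-like cells had the highest shares, 48.3% in DHT and 28.3% in Vehicle cells, the last from the 60 of 126 cells deep enough. The intervals overlapped in GMP-like cells, 21.2% in DHT and 18.3% in Vehicle cells, and in cDC-like cells, 22.5% (15.8 to 30.3) and 13.7% (9.14 to 19.4). The UMIs summed over the 7 members varied more between DHT cells than counting alone gives, since a variance equal to the mean is what random counting leaves. The variance over the mean was 1.99 in DHT and 1.12 in Vehicle cells of all kinds, 2.08 and 1.09 in macrophage-like cells, and 1.97 and 1.04 in neutrophil-like cells. In osteoclast-like cells it was 1.21 in DHT and 1.02 in Vehicle cells. The mean sum per cell was 0.340 UMIs in DHT and 0.0939 in Vehicle cells of all kinds. At equal relative spread this measure grows with the mean, so it does not rank the libraries by spread.

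**Figure D4:**
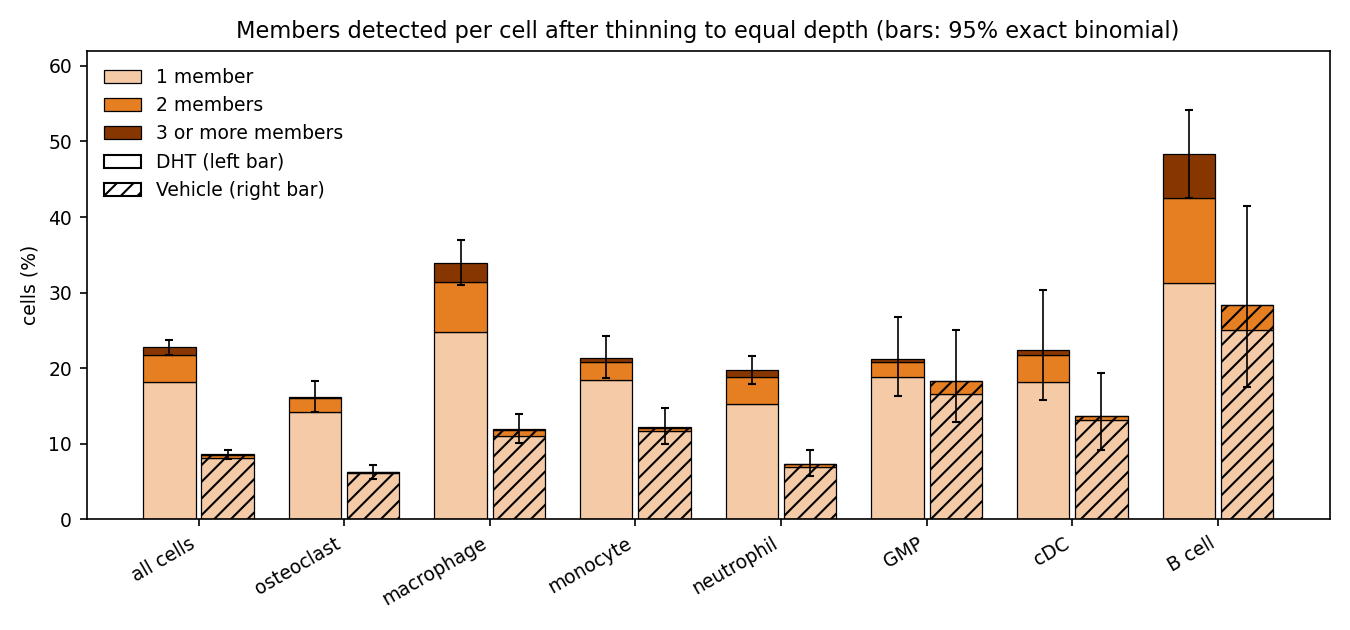
Share of cells (%) in which 1, 2 or at least 3 members were detected after thinning to equal depth, DHT left and Vehicle right (hatched) in each class, with 95% exact binomial intervals on the share with at least 1. The DHT bar is taller in every class, and the 2 bars are closest in GMP-like cells at 21.2% and 18.3%.

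The effectors with few UMIs were found in few cells. Iigp1, on chromosome 18 (chr18:60376027-60392634, plus strand), was found in 36 DHT cells and 4 Vehicle cells, and 31 of the 36 DHT cells also held Irgm1. Macrophage-like cells held 51 Iigp1 UMIs in 15 DHT cells and 5 UMIs in 2 Vehicle cells, a ratio of 16.3 (6.56 to 52.5). Of those 51 UMIs, 39 came from 5 cells, so the level there rests on few cells. Tgtp2 was found in 80 DHT cells and 14 Vehicle cells. Its macrophage-like ratio was 23.2 (5.87 to 201), from 29 UMIs in DHT and 2 in Vehicle cells, and is uncertain because of the Tgtp1 copy.

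Related genes were followed with lists. Of 11 listed relatives of the family, 8 were in the files and 2 were measured in all cells. The relative 9930111J21Rik2 stood at 17.9 CPM in DHT cells and 6.94 CPM in Vehicle cells, a log2 ratio of 1.37. Irgq, a relative described as lacking GTP binding, stood at 6.25 CPM in DHT cells and 6.23 CPM in Vehicle cells, a log2 ratio of 0.01. In osteoclast-like cells Irgq stood at 7.997 and 6.97 CPM, a log2 ratio of 0.20. Below the 5 CPM mean, Gm12185, which shares 223 exonic bases with Tgtp1, stood at 6.78 CPM in DHT cells and 2.53 CPM in Vehicle cells. Gm5431 had 513 UMIs in DHT and 119 in Vehicle cells, Gm4951 135 and 12, 9930111J21Rik1 154 and 69, Irgc1 81 and 55, and F830016B08Rik 9 and 1.

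Guanylate-binding proteins, the larger GTPases that act on the same vacuoles, had 2 measured genes of 10 in the files. Both were higher in all cells (median log2 ratio 1.14), against 6.63% of all measured genes. In osteoclast-like cells Gbp3 stood at 8.59 CPM in DHT and 2.74 CPM in Vehicle cells, and Gbp7 at 24.9 and 11.7 CPM. Of the 21 measured type I interferon-stimulated genes, all 21 were higher in all cells, against the same 6.63%. Their median log2 ratio was 2.13, above the 1.65 of the members. Some, such as Oasl2 at 37.8 CPM in DHT cells and 2.46 CPM in Vehicle cells, passed the mean only through their DHT level. The filter thus partly sets such counts and medians, also in other lists with genes below 5 CPM in Vehicle cells, and they lend no support. In GMP-like cells 8 of 11 type I genes were higher, against 2.91% of measured genes, with a median log2 ratio of 0.93. In osteoclast-like cells all 16 measured were, against 1.29%. In osteoclast-like cells Oasl2, a 2'-5' oligoadenylate synthetase-like gene, stood at 16.5 CPM in DHT and 0.757 CPM in Vehicle cells, and the ubiquitin-like Isg15 at 77.3 and 5.43 CPM. The lowest log2 ratios of that list in osteoclast-like cells were those of Eif2ak2 (PKR), at 55.1 CPM in DHT and 31.8 CPM in Vehicle cells, and Herc6, at 16.9 and 10.2 CPM.

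The interferon gamma-induced list had 5 of 9 measured genes higher and 0 lower in all cells, with a median log2 ratio of 0.60. Of all measured genes, 6.63% were higher and 0.342% lower there. In osteoclast-like cells 4 of 9 were higher, against 1.29% of measured genes. The chemokine Cxcl10 stood at 16.7 CPM in DHT and 1.73 CPM in Vehicle cells, and Nlrc5, an activator of MHC class I genes, at 7.70 and 3.68 CPM. The immunoproteasome gene Psmb8 stood at 197 CPM in DHT and 173 CPM in Vehicle cells, and Cd274 (PD-L1) at 28.0 and 25.3 CPM, both under 1.5-fold.

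Of the 18 measured receptors, kinases and factors of interferon signalling, 8 were higher and 0 lower in all cells. The shares of all measured genes were 6.63% and 0.342%, and the median log2 ratio of the list was 0.31. In osteoclast-like cells, where 1.29% of measured genes were higher, 4 of 17 in the list were. Among them was Irf7, the factor that amplifies type I responses, at 29.9 CPM in DHT and 3.20 CPM in Vehicle cells. The receptor gene Ifnar2 stood at 83.3 CPM in DHT and 87.0 CPM in Vehicle cells there, and the feedback inhibitor Socs3 at 10.7 and 12.0 CPM. The ligands were barely detected. Ifng had 22 UMIs in DHT cells and 11 in Vehicle cells, of which 19 and 8 were in B cell-like cells. Ifnb1 had 9 UMIs in DHT cells and 1 in Vehicle cells.

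None of the 15 genes of the autophagy list was higher or lower by 1.5-fold in all cells or in osteoclast-like cells. The list includes conjugation genes such as Atg5 and Atg7, whose products help place the regulators and effectors on membranes. Of all measured genes, 6.63% were higher and 0.342% lower in all cells, and 1.29% and 0.194% in osteoclast-like cells. With shares this small, a list of 15 genes could well hold none, so nothing is read from this count. The median log2 ratio of the list was 0.05 in all cells. In osteoclast-like cells Gabarapl1 stood at 21.2 CPM in DHT and 18.2 CPM in Vehicle cells, Becn1 at 54.1 and 47.7, Map1lc3b at 98.5 and 117, and Map1lc3a at 7.67 and 9.43.

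**Figure D5:**
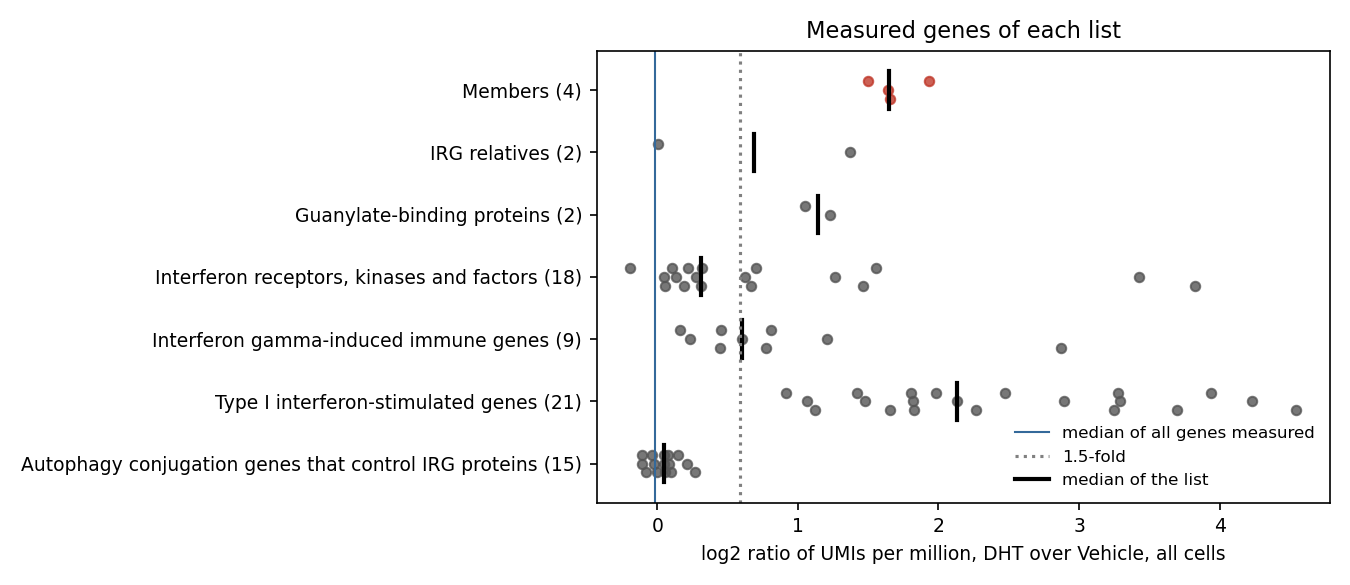
Log2 ratio of the level in DHT over Vehicle cells for each measured gene of the members and of 6 related lists in all cells, with each list's median (black), the 1.5-fold limit (dotted) and the median of all measured genes (blue). The 4 members lie between 1.502 and 1.93, the type I list reaches further to the right, and the autophagy list sits around 0.

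Across the 14 class-by-library levels, the genes whose pattern was most like the mean of the members were Trim21 (r = 0.945), Ifi213 (0.922), Vcpip1 (0.917), Slfn8 (0.909) and Adar (0.905), of 9981 genes compared. Among the members, Igtp followed the mean of the other 6 most closely (r = 0.966), and Ifi47 (0.778), Iigp1 (0.760) and Tgtp1 (0.687) least so. These 14 points share 2 libraries and differ in depth, so the coefficients are descriptions of likeness.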

How the data were processed

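Per the labels' protocols, 3′ libraries were made with Chromium chemistry. The authors deposited raw UMI counts per gene and barcode, made with Cell Ranger 7.0.1 per the submitters' processing notes, which also list GRCh38 and mm10 and do not say how each was used. Whether intronic reads or strand entered the counting is not given in the sources used here. Kept barcodes had 300 genes or more, 800 UMIs or more and a mitochondrial share of at most 10%, which removed 2887 DHT and 1884 Vehicle barcodes. Scrublet (expected rate 0.08) marked 203 and 156 more as doublets. Cells of both libraries were clustered together with scanpy 1.11.5 (2000 variable genes without the members and interferon lists, 30 components, 15 neighbours, Leiden resolution 0.6, 15 clusters). Clusters were named from marker lists of 17 cell types, and names are rebuilt, not the study's. The 7 classes with at least 100 cells in each library were compared.

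Counts were summed per library and class and scaled to CPM. Intervals are exact: Poisson for levels, Clopper-Pearson for shares, and conditional binomial for ratios. With 1 library per group no test was run, and cells were not used as replicates. No ratio was given where both libraries were at 3 UMIs or fewer. The steps were tested on simulated data. The members and lists were chosen with earlier results of these data known. From each list, the text names the 2 measured genes with the highest and the 2 with the lowest log2 ratio in osteoclast-like cells, plus the family's relatives and the 5 genes most like the members. The receptors and ligands, and the neutrophil-like and monocyte-like clusters, were added after their values were seen, as was Acp5. Motifs and windows come from RefSeq, gene positions from GENCODE M21. Scaling alternatives used edgeR 4.0.16 and DESeq2 1.42.0 factors on the counts. Counts, not replicates, set the precision: Irgm1 had 7289 DHT and 3394 Vehicle UMIs, Tgtp1 6 and 1. A gene that this rule would name is not reported here.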

Additional observations from a re-analysis of the deposited data

Results flagged for a closer look

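The barcodes that the filter and the doublet step removed, 3090 DHT and 2040 Vehicle barcodes, enter no comparison above. Irgm1, Irgm2, Igtp and Ifi47 were more frequent among those of the DHT library. Irgm1 stood at 18.4 CPM in removed DHT barcodes and 4.88 CPM in removed Vehicle barcodes. Irgm2 stood at 7.69 CPM in removed DHT and 2.14 CPM in removed Vehicle barcodes, Igtp at 7.03 and 1.70 CPM, and Ifi47 at 10.2 and 3.97 CPM. Iigp1 had 1 UMI in the removed barcodes of each library, Tgtp1 had 0 in each, and Tgtp2 had 6 in DHT and 0 in Vehicle. The cell types of the removed barcodes were not assigned.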

How the results depend on the processing

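No paired analysis was possible because each group is 1 library. Of 463 member ratios recomputed under an alternative, 454 stayed on the same side of the 1.5-fold limit, 9 crossed it and 0 of those past it changed sign. The 9 were Irgm1 in GMP-like cells (7), Ifi47 in neutrophil-like cells (1) and Irgm2 in cluster 8 (1). In all cells, over 11 settings, the log2 ratio ranged from 1.56 to 1.85 for Irgm1, 1.85 to 2.20 for Irgm2, 1.37 to 1.89 for Igtp and 1.42 to 1.92 for Ifi47. Ifi47 in GMP-like cells ranged from -0.01 (median-of-ratios scaling) to 0.28.

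With no filter on low levels, the count of members at least 1.5-fold higher was 7 in all cells, 5 in osteoclast-like, 6 in monocyte-like and 4 in GMP-like cells and 5 in cluster 0. The percent of genes higher was then 18.4 in all cells, 8.16 in osteoclast-like, 7.46 in neutrophil-like, 8.57 in macrophage-like, 9.16 in monocyte-like and 8.99 in GMP-like cells and 7.35 in cluster 0. With at least 20 CPM in a library asked for, the count was 1 in all cells, 0 in osteoclast-like, 0 in neutrophil-like, 2 in macrophage-like, 1 in monocyte-like and 1 in cDC-like cells, 1 in cluster 0 and 1 in cluster 4, and the percent was 1.40 in GMP-like cells. At 2-fold the monocyte-like count was 1, and the percent was 3.58 in all cells, 0.721 in osteoclast-like, 0.938 in neutrophil-like, 1.95 in macrophage-like, 0.719 in monocyte-like, 5.93 in B cell-like, 0.478 in GMP-like and 4.35 in cDC-like cells, 0.833 in cluster 0 and 3.74 in cluster 4. The osteoclast-like count was 2 with a mean of each cell's CPM, a mitochondrial limit of 20%, a minimum of 1000 genes and 2000 UMIs, doublets left in, the top 10% of doublet scores removed, or Leiden resolution 1.0. The GMP-like count was 1 under those same settings, and also with the deeper library thinned or a mitochondrial limit of 5%. Beyond those that change the limit or the filter, the cause was not tested. Counts given here without a percent beside them have no share of all genes to be read against and are descriptions only.

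The GMP-like class had no match at Leiden resolution 0.3. Clusters 0 and 4 were not followed into other clusterings, and free RNA was not estimated from neutrophil markers for all cells or for neutrophil-like, monocyte-like and GMP-like cells. Weighting by the Vehicle mix, leaving out shared barcodes, free RNA from osteoclast markers, and the alternatives on clusters were chosen after seeing the data. Low counts limit Iigp1, Tgtp1 and Tgtp2 in every class, and depth limits all members in Vehicle B cell-like cells and cluster 6. For Tgtp1 and Tgtp2 the shared 3′ ends may lower the counts as well.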

Other observations

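Iigp1 was not confined to myeloid cells. A cluster led by Timp1, Sparc, Col1a1 and Col1a2, mesenchymal stromal-like and too small to be compared (25 DHT and 12 Vehicle cells), held 38 Iigp1 UMIs in 8 of its DHT cells and 1 UMI in 1 of its Vehicle cells. This is 38 of the 110 Iigp1 UMIs in the DHT library, and 18 came from 1 cell. Irgm2 had 24 UMIs in its DHT cells and 1 in its Vehicle cells. Ifi47 stood at 11.2 CPM in DHT and 14.2 CPM in Vehicle cells of the cluster, a ratio of 0.791 (0.354 to 1.85).

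Cluster 4, unnamed because of its median of 1479 UMIs in DHT and 1526.5 UMIs in Vehicle cells and with macrophage genes among its leading genes, held 1004 DHT and 424 Vehicle cells. Irgm1 stood there at 30.9 CPM (105 UMIs) in DHT cells and 6.31 CPM (16 UMIs) in Vehicle cells. All 4 measured members were higher in its DHT cells, against 10.7% of measured genes. Irgm2, Igtp and Ifi47, at 1.97, 1.58 and 3.55 CPM in Vehicle cells, passed the mean through their DHT level. Nothing is read from this count. Macrophage markers summed to 1520 CPM in DHT and 611 CPM in Vehicle cells of this cluster, and neutrophil markers to 4510 and 1411 CPM. Megakaryocyte markers summed to 2332 and 767 CPM, with 3 of the 5 at 0 in each library. One of them, Pf4, is a leading gene of this cluster and of the macrophage-like class, so that sum need not mean megakaryocyte RNA. The part of these markers in the member levels was not tested.

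The 9 Ifnb1 UMIs of the DHT library came from 2 macrophage-like cells.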
